A study of Mus musculus with 50 samples.

Results

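Reelin is a large glycoprotein that early-born neurons secrete into the extracellular space of the developing brain. It binds the lipoprotein receptors Vldlr (very low density lipoprotein receptor) and Lrp8 (also called ApoER2) on migrating neurons, which brings about tyrosine phosphorylation of the intracellular adaptor Dab1. Loss of the ligand, of both receptors together or of the adaptor gives the reeler pattern of misplaced cortical, hippocampal and cerebellar neurons. In the early telencephalon the main source of Reelin is the Cajal-Retzius cell of the marginal zone, and early cerebellar and hindbrain neurons also make it. The 4 genes of this axis, Reln, Dab1, Vldlr and Lrp8, were taken by symbol from a table of 11708 genes, and 4 of the 4 were present. The set was chosen by symbol with the low level of Reln in gtf2i/gtf2i libraries already known. The contrasts of Reln that use these libraries therefore describe it and lend the choice no support. They are those with wt and with gtf2i, and the difference between the crosses. Adjusted p-values below come from fits over all genes of the table.

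RNA was sequenced from 18 whole brains of FVB/ANTJ mouse embryos at E13.5 after removal of ribosomal RNA. There were 6 groups of 3 libraries. In the gtf2i cross the genotype label was wt, gtf2i or gtf2i/gtf2i, and in the ird1 cross it was wt, ird1 or ird1/ird1, and each cross had its own wt embryos. Gtf2i encodes TFII-I, a transcription factor that binds initiator and E-box elements, and Gtf2ird1 encodes a related factor. Both genes lie in the interval deleted in Williams syndrome. A label with the allele named once was read as 1 mutant allele. The labels do not describe the lesion of either allele, the sex of the embryos or the litter, and no group carries both alleles. A number at the start of each sample title is shared by libraries of different genotypes, but what it stands for is not stated. No label says whether the 3 embryos of a group come from separate litters, so p-values measure the spread between these samples, which may in part be technical.

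The deposited counts summed to between 3239117 and 7371483 per library. Gtf2i transcripts averaged 624 ± 30.7 CPM (counts per 1000000 of the scaled library total, SD, n = 3) in wt, 368 ± 6.23 in gtf2i and 82.5 ± 0.797 in gtf2i/gtf2i. Gtf2ird1 averaged 98.2 CPM in wt of the ird1 cross (90.4 to 114), 149 ± 1.93 in ird1 and 223 ± 4.21 in ird1/ird1, and it also stood at 267 ± 21.0 in gtf2i/gtf2i against 92.4 ± 7.32 in the wt of that cross. Because no lesion is described, the higher Gtf2ird1 count cannot be set against the ird1 labels. Gtf2i/gtf2i replicate 3 stood apart from the other libraries of its group, with a slope of counts on transcript length of 0.12 against -0.03 in each of the others and 1.90% of counts in short transcripts against 3.73% and 4.51%. Wt replicate 3 of the gtf2i cross, with the same title number 12419, was close to it, at 0.09 and 2.08%. Leaving out gtf2i/gtf2i replicate 3 alone keeps that wt library, so this setting is not balanced over the title numbers. Without gtf2i/gtf2i replicate 3, 1159 genes in place of 110 passed the test against wt. Wt replicate 2 of the ird1 cross was the shallowest library and had the steepest fall of counts with transcript length. Where leaving out a library changes a call on a named gene of Reelin signalling, the value or range without it is given below. The marker lists were recounted only without gtf2i/gtf2i replicate 3, so how their counts depend on other libraries is not known.

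Sequence just before an annotated transcript start of each gene is shown because both mutated genes encode DNA-binding factors. It covers the 250 bases upstream of an annotated start, from RefSeq on GRCm38.p6, which is the mm10 build of the counts. For genes with more than 1 start the most GC-rich window is printed. Reln is at chr5:21884454-22344705 and its window is chr5:22344706-22344955 on the minus strand. Dab1 is at chr4:103619500-104744844 with the window chr4:104367288-104367537, Vldlr at chr19:27216480-27254231 with chr19:27216770-27217019, and Lrp8 at chr4:107802200-107876840 with chr4:107802635-107802884, these 3 on the plus strand. The Dab1, Vldlr and Lrp8 windows printed precede starts inside the gene's outer bounds. Capitals mark the E-box CACGTG, which reads the same on both strands.
Reln: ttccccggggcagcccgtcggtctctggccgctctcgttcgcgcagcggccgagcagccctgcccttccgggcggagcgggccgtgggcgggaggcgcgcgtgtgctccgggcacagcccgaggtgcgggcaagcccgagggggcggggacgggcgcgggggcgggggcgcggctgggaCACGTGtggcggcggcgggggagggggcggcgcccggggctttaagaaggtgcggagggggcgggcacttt
Dab1: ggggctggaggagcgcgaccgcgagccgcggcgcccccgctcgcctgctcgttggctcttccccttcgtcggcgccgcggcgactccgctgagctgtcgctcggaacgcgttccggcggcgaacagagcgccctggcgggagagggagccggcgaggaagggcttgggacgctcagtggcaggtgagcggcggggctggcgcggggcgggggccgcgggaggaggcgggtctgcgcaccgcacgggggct
Vldlr: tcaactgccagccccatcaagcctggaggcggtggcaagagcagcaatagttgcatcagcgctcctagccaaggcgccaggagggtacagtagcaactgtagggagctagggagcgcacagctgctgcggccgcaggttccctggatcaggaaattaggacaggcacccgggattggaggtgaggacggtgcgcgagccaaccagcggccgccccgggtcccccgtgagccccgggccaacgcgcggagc
Lrp8: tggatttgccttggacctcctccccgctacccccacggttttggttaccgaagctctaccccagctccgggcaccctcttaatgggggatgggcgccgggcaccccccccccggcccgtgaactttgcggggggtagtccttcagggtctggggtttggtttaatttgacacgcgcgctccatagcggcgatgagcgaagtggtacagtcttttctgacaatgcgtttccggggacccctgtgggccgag

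The Reln window held 1 CACGTG, from 71 to 66 bases before the start. None of the 7 windows of Dab1 (2 starts), Vldlr (2 starts) and Lrp8 (3 starts) held one. Across 32851 windows of the same length from 27025 genes, 6.02% held CACGTG. The motif GGATTA, the core recognised by the Gtf2ird1 protein, was searched on both strands, and 0 of the 8 windows held it against 6.25% of all windows. Each match is a run of letters and not a measured binding site, and the chromatin samples of the series were not analysed here. The Reln window was 80.0% G and C, above 98.8% of all windows, with 37 CpG dinucleotides. The printed Dab1 window came close to it, at 78.0% and 40 CpG, while the Vldlr and Lrp8 windows shown had 66.4% and 62.4%.

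In gtf2i/gtf2i brains the transcript of the ligand was lower than in wt and in gtf2i brains, while those of both receptors and of the adaptor differed by less than their intervals could separate from 0. Reln counted 452, 466 and 537 CPM in the 3 wt libraries, 568, 497 and 589 in gtf2i, and 271, 304 and 337 in gtf2i/gtf2i, listed in each group by the title numbers 11619, 12301 and 12419. Every gtf2i/gtf2i library lay below every wt and every gtf2i library, and the wt and gtf2i libraries overlapped. The mean was 304.1 ± 32.7 CPM in gtf2i/gtf2i against 485 ± 45.7 in wt (SD, n = 3 each), and the fitted level was 62.4% of wt. Within each title number the gtf2i/gtf2i library held 60%, 65.3% and 62.7% of the wt level. On the log2 scale Reln was lower by 0.68, with a difference of -0.68 (SE 0.10, 95% interval -0.90 to -0.46, adjusted p = 0.00697 by edgeR's quasi-likelihood test). In this contrast 0.94% of all genes were called in either direction and 0.53% were called lower, and Reln was the 1 member of the 4 among them. Such separate ranges, with every gtf2i/gtf2i library the lower, were found for 8.98% of all genes. With 3 libraries against 3 the exact two-sided permutation test of the Reln means gave p = 0.1, the smallest it can give.

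**Figure D1:**
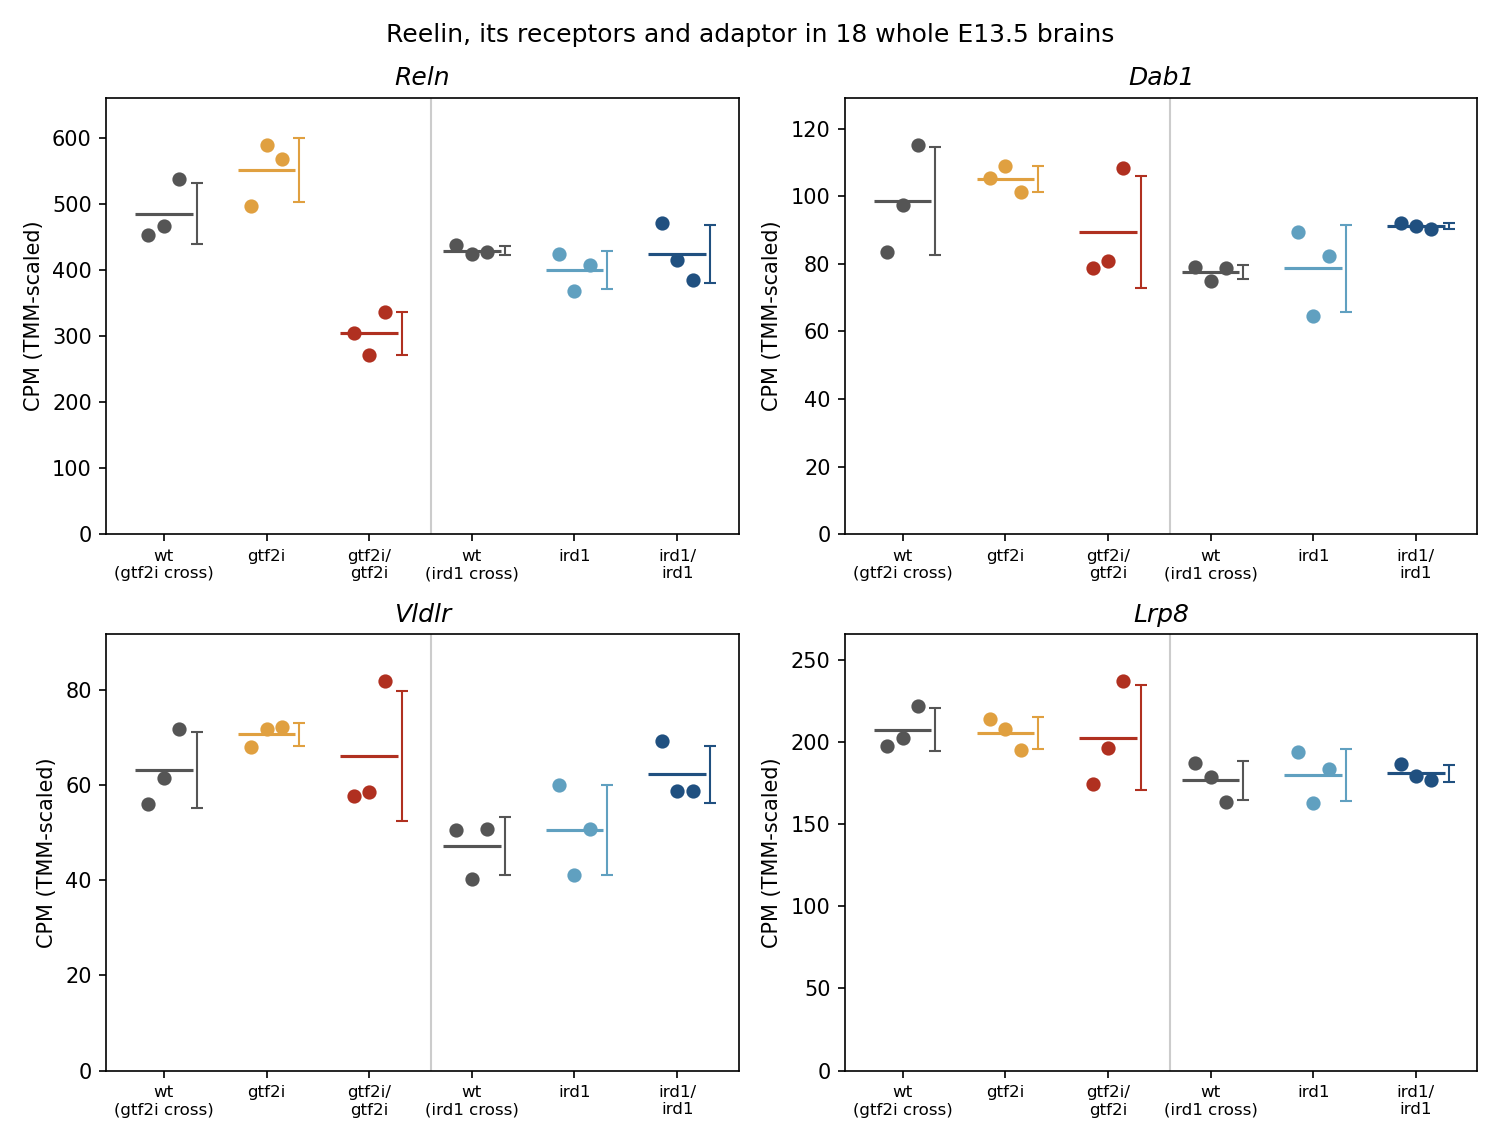
Level of each of the 4 genes in 18 libraries, in CPM on TMM-scaled library sizes (vertical axes start at 0); points are libraries, horizontal lines are group means and bars are SD over 3 libraries. The 3 gtf2i/gtf2i points of Reln, 271 to 337 CPM, lie below all other Reln points, while the groups of the other genes overlap within the gtf2i cross.

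With 1 mutant allele the Reln level was not lower. The difference between gtf2i and wt was 0.18 (95% interval -0.04 to 0.40, adjusted p = 1.0 by edgeR), and 0 of 4 members were called where 0.00854% of all genes were. None of the 4 had an unadjusted p under 0.05 either, against 1.6% of all genes. Against gtf2i, the gtf2i/gtf2i libraries had a fitted 55.0% of the Reln level, a log2 difference of -0.86 (SE 0.10, 95% interval -1.08 to -0.64, adjusted p = 6.44e-04 by edgeR). Reln was again the 1 called member, beside 3.12% of all genes called in either direction, 1.33% higher and 1.79% lower. These 2 contrasts share the gtf2i/gtf2i libraries. The order of the Reln levels in this cross was gtf2i, wt and gtf2i/gtf2i, and the first 2 of these did not differ beyond their spread. Without gtf2i/gtf2i replicate 3 the differences were -0.75 from wt and -0.94 from gtf2i.

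In the ird1 cross Reln was not called in any contrast. It counted 438, 424 and 426 CPM in wt, 424, 367 and 407 in ird1, and 471, 415 and 385 in ird1/ird1, in the order of replicates 1 to 3. All 3 groups overlapped, and the 9 libraries lay between 367 and 471 CPM. The difference between ird1/ird1 and wt was -0.03 (95% interval -0.23 to 0.17, adjusted p = 0.872 by edgeR), and between ird1 and wt it was -0.10 (95% interval -0.30 to 0.10, adjusted p = 0.997). Between ird1/ird1 and ird1 it was 0.07 (95% interval -0.13 to 0.27). In this fit the intervals leave out a decrease as large as the -0.68 of gtf2i/gtf2i, but with the trend of counts on transcript length removed the differences from wt were -0.31 in ird1/ird1 and -0.23 in ird1 (adjusted p = 0.401 and 0.981). Of the 4 members, 0 were called in ird1/ird1 against wt, where 0.00854% of all genes were. At an unadjusted p under 0.05 Vldlr was the 1 member, beside 16.1% of all genes (1886, against 877 without wt replicate 2, 983 and 1194 without ird1/ird1 replicates 1 and 2). For ird1 and wt, 0 members and 0% of all genes were called, and the unadjusted p was under 0.05 for 0 members and 3.02% of all genes (353, against 214 and 637 without ird1 replicates 1 and 2, 694 and 551 without wt replicates 1 and 3). Comparing ird1/ird1 with ird1 gave 0 members and 0% of all genes, and at the unadjusted threshold Vldlr and 4.66% of all genes (546, against 358 without ird1/ird1 replicate 1 and 183 without ird1 replicate 2). By DESeq2, 0 members passed in these 3 contrasts as well.

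**Figure D2:**
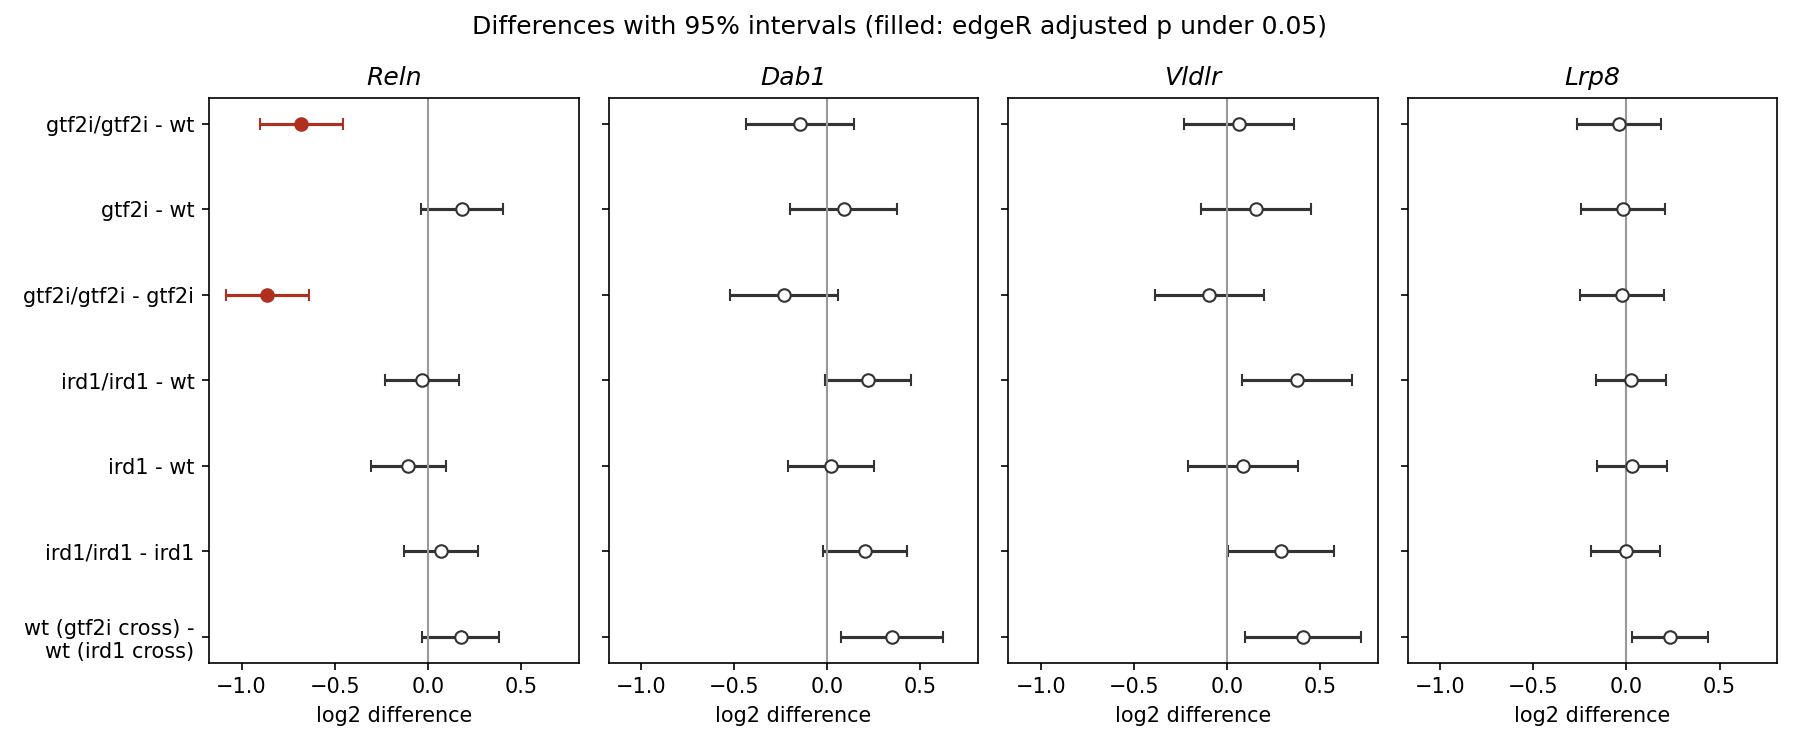
Log2 difference (horizontal axis) of each of the 4 genes in 6 genotype contrasts and between the wt groups of the 2 crosses, with 95% intervals; filled points have an edgeR adjusted p under 0.05 over all genes. The filled points are Reln in gtf2i/gtf2i against wt, -0.68, and against gtf2i, -0.86.

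The difference between the crosses in the effect on Reln was read from a fit of all 18 libraries. It uses the gtf2i/gtf2i libraries whose low Reln level was already known, so its p-values are a description. The gtf2i/gtf2i effect minus the ird1/ird1 effect was -0.65 for Reln (SE 0.14, 95% interval -0.95 to -0.36, unadjusted p = 1.38e-04), and its adjusted p of 0.0538 by edgeR missed the threshold. In that comparison 0.171% of all genes were called and 0.0427% were called lower, with 0 of the 4 members among them, while 13% had an unadjusted p under 0.05. These 1517 genes became 2869 without gtf2i/gtf2i replicate 3 and 918 to 1009 without gtf2i/gtf2i replicate 1 or 2, ird1/ird1 replicate 1 or wt replicate 3 of the gtf2i cross. DESeq2 put it past the threshold (adjusted p = 0.00477), as did the fit with the title number as a block (0.0185) and the one without gtf2i/gtf2i replicate 3 (0.00745). With the trend of counts on transcript length taken out of each library, the difference was -0.36 (adjusted p = 0.341). Reln has the longest transcript of the 4 genes, 11699 bases in the deposited table, and the slope of counts on length ran from -0.17 to -0.03 in the wt libraries of the ird1 cross and from -0.03 to 0.05 in ird1/ird1. The difference between the crosses in Reln is thus not called in the main test and moves with the length correction. Within the gtf2i cross the same correction left -0.65 against wt (adjusted p = 8.44e-04).

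For the adaptor, Dab1 counted 83.4, 97.3 and 115 CPM in wt, 101, 105 and 109 in gtf2i, and 80.8, 78.7 and 108 in gtf2i/gtf2i, again by title number. The groups overlapped, and the highest gtf2i/gtf2i value belonged to replicate 3. Dab1 differed from wt by -0.15 (95% interval -0.44 to 0.14, adjusted p = 0.711 by edgeR) and from gtf2i by -0.23 (95% interval -0.52 to 0.06, adjusted p = 0.426). Without gtf2i/gtf2i replicate 3 these became -0.31 (adjusted p = 0.109) and -0.40 (adjusted p = 0.0348), so that the second was called. In the ird1 cross Dab1 stood at 78.9, 75.0 and 78.8 CPM in wt, 89.4, 64.4 and 82.3 in ird1, and 92.1, 91.2 and 90.1 in ird1/ird1. The ird1/ird1 libraries were above all 3 wt libraries, as for 15.1% of all genes in that direction, and the difference of 0.22 did not pass (95% interval -0.01 to 0.45, adjusted p = 0.317 by edgeR).

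Vldlr, the receptor with the lowest level, counted 56.0, 61.4 and 71.8 CPM in wt, 72.1, 67.9 and 71.7 in gtf2i, and 58.4, 57.7 and 81.8 in gtf2i/gtf2i. Of the gtf2i/gtf2i libraries, replicates 1 and 2 lay within the wt range and replicate 3 above it. The difference from wt was 0.06 (95% interval -0.23 to 0.36, adjusted p = 0.902 by edgeR), and without that library it was -0.12. In the ird1 cross Vldlr stood at 50.4, 40.1 and 50.8 CPM in wt, 59.9, 41.0 and 50.6 in ird1, and 69.1, 58.8 and 58.6 in ird1/ird1. All 3 ird1/ird1 libraries exceeded all 3 wt libraries, as for 15.1% of all genes. The difference of 0.38 had an unadjusted p of 0.0157 but an adjusted p of 0.296 by edgeR (95% interval 0.08 to 0.67), and is therefore not called. With the length trend removed it was 0.19 (adjusted p = 0.449), and without wt replicate 2, the lowest library, it was 0.29 (adjusted p = 0.653).

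Lrp8, the receptor with the higher level, counted 198, 203 and 222 CPM in wt, 195, 214 and 208 in gtf2i, and 196, 174 and 237 in gtf2i/gtf2i. These groups overlapped, and their means of 207, 206 and 203 CPM were the closest of the 4 genes. The difference between gtf2i/gtf2i and wt was -0.04 (95% interval -0.27 to 0.19, adjusted p = 0.922 by edgeR). In the ird1 cross it ranged from 163 to 194 CPM over 9 libraries, and ird1/ird1 differed from wt by 0.02 (95% interval -0.16 to 0.21, adjusted p = 0.897). For Dab1, Vldlr and Lrp8 the intervals in gtf2i/gtf2i against wt all leave out the -0.68 measured for Reln, though smaller decreases remain within them.

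The wt libraries of the 2 crosses were set side by side. All 4 genes read somewhat higher in those of the gtf2i cross without being called in the main test. Reln turned lower once the length trend was removed, and the Lrp8 difference fell as low as 0.0095 among the alternatives. The log2 difference was 0.18 for Reln (-0.15 with the length trend removed), 0.35 for Dab1, 0.41 for Vldlr and 0.23 for Lrp8, and for each of them the 3 libraries of one cross lay above the 3 of the other. The same held for 16.3% of all genes in that direction. None passed in the main test (adjusted p from 0.0847 to 0.212 by edgeR), where 0% of all genes were called. The unadjusted p fell under 0.05 for 3 of the members and 32.7% of all genes. These 3827 genes became 1864 without wt replicate 2 of the ird1 cross, and 2416 and 2287 without wt replicates 2 and 3 of the gtf2i cross. With wt replicate 1 of the gtf2i cross left out, Dab1 (adjusted p = 0.0321) and Vldlr (0.0457) were called, together with 2076 genes in all. Leaving out replicate 1 of the other wt group called 1032 genes and 0 members. Each genotype was therefore tested against the wt of its own cross. Levels set side by side across the crosses are a description, since cross and library set cannot be told apart.

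Scaled by transcript length, the ligand was the most abundant of the 4. Over the 18 libraries Reln averaged 36.9 CPM per kilobase, above 84.1% of 11700 genes with a length, Lrp8 26.0 (above 76.1%), Dab1 17.1 (above 63.2%) and Vldlr 7.52 (above 35.5%). The raw counts behind these levels were 1175 to 4006 for Reln, 543 to 1637 for Lrp8, 228 to 849 for Dab1 and 122 to 536 for Vldlr. The ratio of Reln to Lrp8 per kilobase was 1.45 to 1.53 in wt of the gtf2i cross, 1.47 to 1.84 in gtf2i and 0.873 to 1.10 in gtf2i/gtf2i. Ligand transcripts thus exceeded those of Lrp8 by this measure in all wt and gtf2i libraries, and in 1 of the 3 gtf2i/gtf2i libraries. In the ird1 cross the ratio lay between 1.38 and 1.65. The ratio of Reln to Dab1 was 2.10 to 2.45 in wt and 1.40 to 1.74 in gtf2i/gtf2i. Between the receptors, Lrp8 exceeded Vldlr 2.91-fold to 4.80-fold per kilobase over all 18 libraries, and the gtf2i/gtf2i range of 3.13 to 3.62 fell among those of the other groups.

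**Figure D3:**
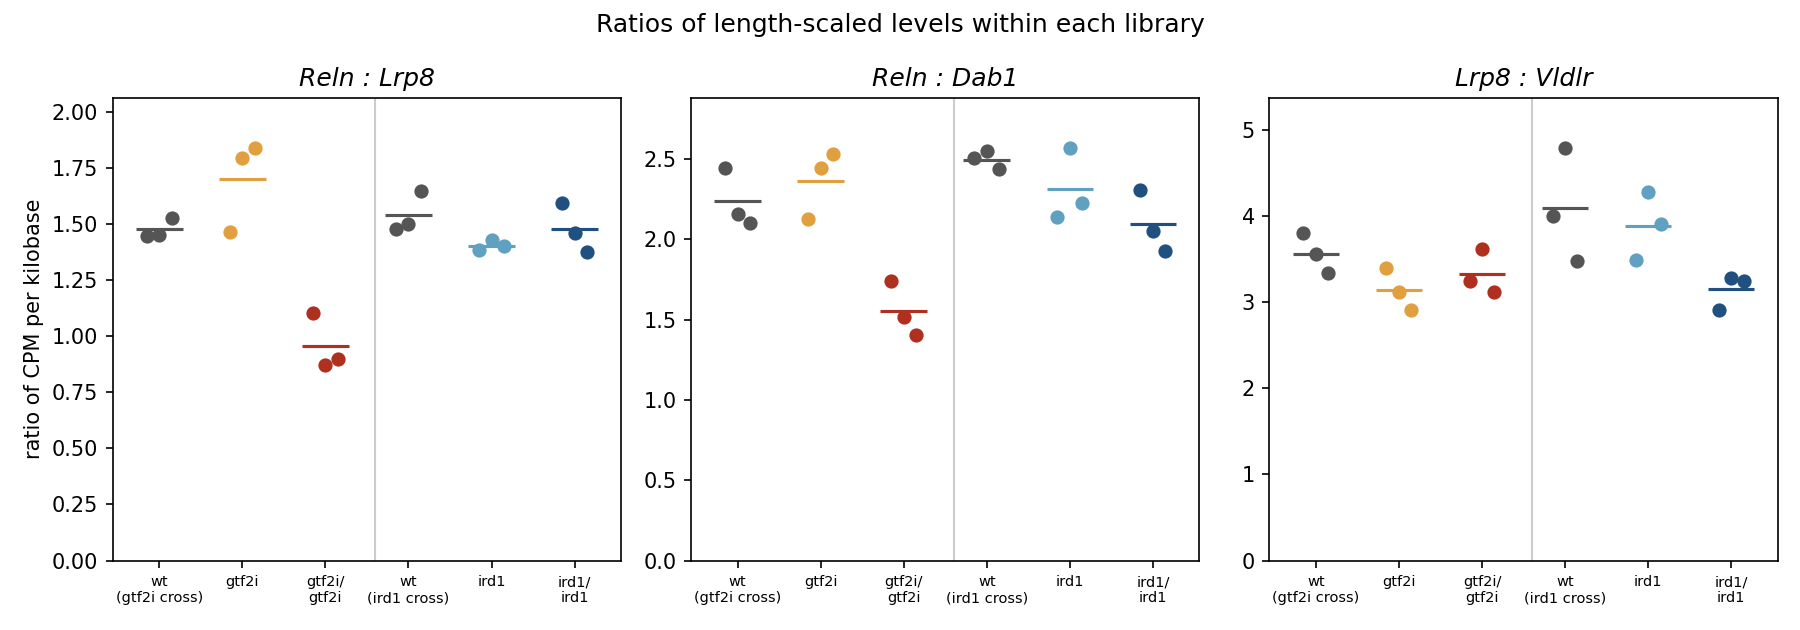
Ratios of CPM per kilobase within each library (vertical axes start at 0) for Reln to Lrp8, Reln to Dab1 and Lrp8 to Vldlr; points are libraries and lines are group means. The gtf2i/gtf2i points lie lowest for both Reln ratios and among the other groups for the ratio of the receptors.

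Across libraries the receptors and the adaptor varied together more than the ligand did with any of them. After the mean of each cross was taken out of the log2 CPM, Pearson's r over the 18 libraries was 0.86 between Dab1 and Vldlr, 0.74 between Dab1 and Lrp8 and 0.61 between Vldlr and Lrp8. For Reln it was 0.59 with Dab1, 0.31 with Vldlr and 0.29 with Lrp8. These values describe libraries that share depth, length trend and genotype differences. By the same measure the 5 genes most like Reln were Shtn1 (0.96), Neurod6 (0.96), Adamts3 (0.95), Gpr26 (0.95) and Prkce (0.94). Shtn1 encodes shootin 1 of growing axons, Neurod6 a transcription factor of cortical projection neurons, and Adamts3 a protease that cleaves Reelin. The genes most like Dab1 were Kifap3, Kif1b, Tmem170b, Kalrn and Ppfia2 (0.94 to 0.93). For Vldlr they included Sh3glb1, Bmi1, Trim44 and Oga (all 0.92), and for Lrp8 they were Xkr6, Gnaq, Nap1l5, Ncam1 and Plcb4 (0.86 to 0.84).

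Around the axis, 82 of 83 listed genes of Reelin signalling were in the table. In gtf2i/gtf2i against wt, 2 of the 82 were called higher and 2 lower, beside 0.41% and 0.53% of all genes, and the median difference of the list was -0.01 against 0.0016 over all genes. With the title number as a block 8 were called, while the count over all 11708 genes rose from 110 to 624. Leaving out 1 library at a time gave 2 (without wt replicate 3, with 28 of all genes) to 11 (without gtf2i/gtf2i replicate 3, with 1159 of all genes). Against gtf2i, 2 were called higher and 5 lower, with a range of 5 (without gtf2i replicate 2 or 3) to 13 (without gtf2i/gtf2i replicate 3, with 1376 of all genes in place of 365). In the 3 contrasts within the ird1 cross 0 of 82 were called, and their median in ird1/ird1 against wt was 0.05.

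Among the 9 proteases and other ligands of the receptors, Thbs1 was called higher and none lower against wt. Thbs1 encodes thrombospondin 1, which can bind both receptors. It counted 29.7, 32.7 and 30.3 CPM in wt, and 55.7, 58.7 and 52.6 in gtf2i/gtf2i, in the order of replicates 1 to 3, with no overlap, a log2 difference of 0.84 (SE 0.10, adjusted p = 5.83e-04 by edgeR). Adamts3 counted 15.3, 14.4 and 18.9 CPM in wt, 19.2, 21.7 and 22.3 in gtf2i, and 10.3, 9.01 and 11.6 in gtf2i/gtf2i. All gtf2i/gtf2i libraries were below the others. The Adamts3 difference was -0.65 from wt (adjusted p = 0.0683 by edgeR, 0.0235 with the title number as a block and 0.0199 without gtf2i/gtf2i replicate 3) and -1.02 from gtf2i (adjusted p = 0.00465).

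Of 12 related receptors and co-receptors, Lrp2 was called higher and Efnb2 lower against wt, and against gtf2i Sorl1 was called lower as well. Lrp2 encodes megalin, an endocytic receptor of the same family, and rose from 54.0 ± 11.3 to 104 ± 14.7 CPM, a log2 difference of 0.95 (adjusted p = 0.0104 by edgeR). That call was lost without wt replicate 3 (0.86, adjusted p = 0.0664). Against gtf2i Lrp2 was higher by 0.90, a call lost in 2 of 15 alternatives. With 1 library left out its adjusted p there reached 0.0618 by edgeR. Efnb2, which encodes a transmembrane ephrin reported to bind Reelin, fell by 0.40 on the log2 scale (adjusted p = 0.0311 by edgeR), from 207 ± 4.89 to 158 ± 10.1 CPM. The Efnb2 call was lost without any one of 5 libraries of these groups (adjusted p from 0.0547 to 0.167) and when only these groups were fitted (0.0907). Sorl1, a sorting receptor, differed from wt by -0.47 (adjusted p = 0.0576, 0.0154 with the block and 0.00764 without gtf2i/gtf2i replicate 3) and from gtf2i by -0.68 (adjusted p = 0.00467).

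No gene was called against wt among the 4 for receptor sorting, the 25 kinases and adaptors downstream of Dab1, the 6 that turn over phosphorylated Dab1 and the 21 of the cytoskeleton, adhesion and Notch. The genes with the smallest p of the first 3 lists were Mylip, the ligase that degrades lipoprotein receptors (0.34, adjusted p = 0.437 by edgeR), the kinase subunit Pik3cb (-0.31, 0.187) and Socs7, which targets phosphorylated Dab1 (-0.20, 0.231). Pik3cb differed from gtf2i by -0.38 and was called there in 2 of 15 alternatives. With 1 library left out its adjusted p against gtf2i fell to 0.0418 by edgeR. Against gtf2i the microtubule-binding protein Mapt was lower by 0.70, with a difference of -0.70 (adjusted p = 0.0358 by edgeR). Its difference from wt was -0.62 (adjusted p = 0.0814, and 0.00454 with the block), and without gtf2i/gtf2i replicate 3 it was -0.87 (adjusted p = 2.99e-04). The Mapt call against gtf2i was lost without any of gtf2i replicates 2 and 3 and gtf2i/gtf2i replicates 1 and 2 (adjusted p from 0.144 to 0.178).

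**Figure D4:**
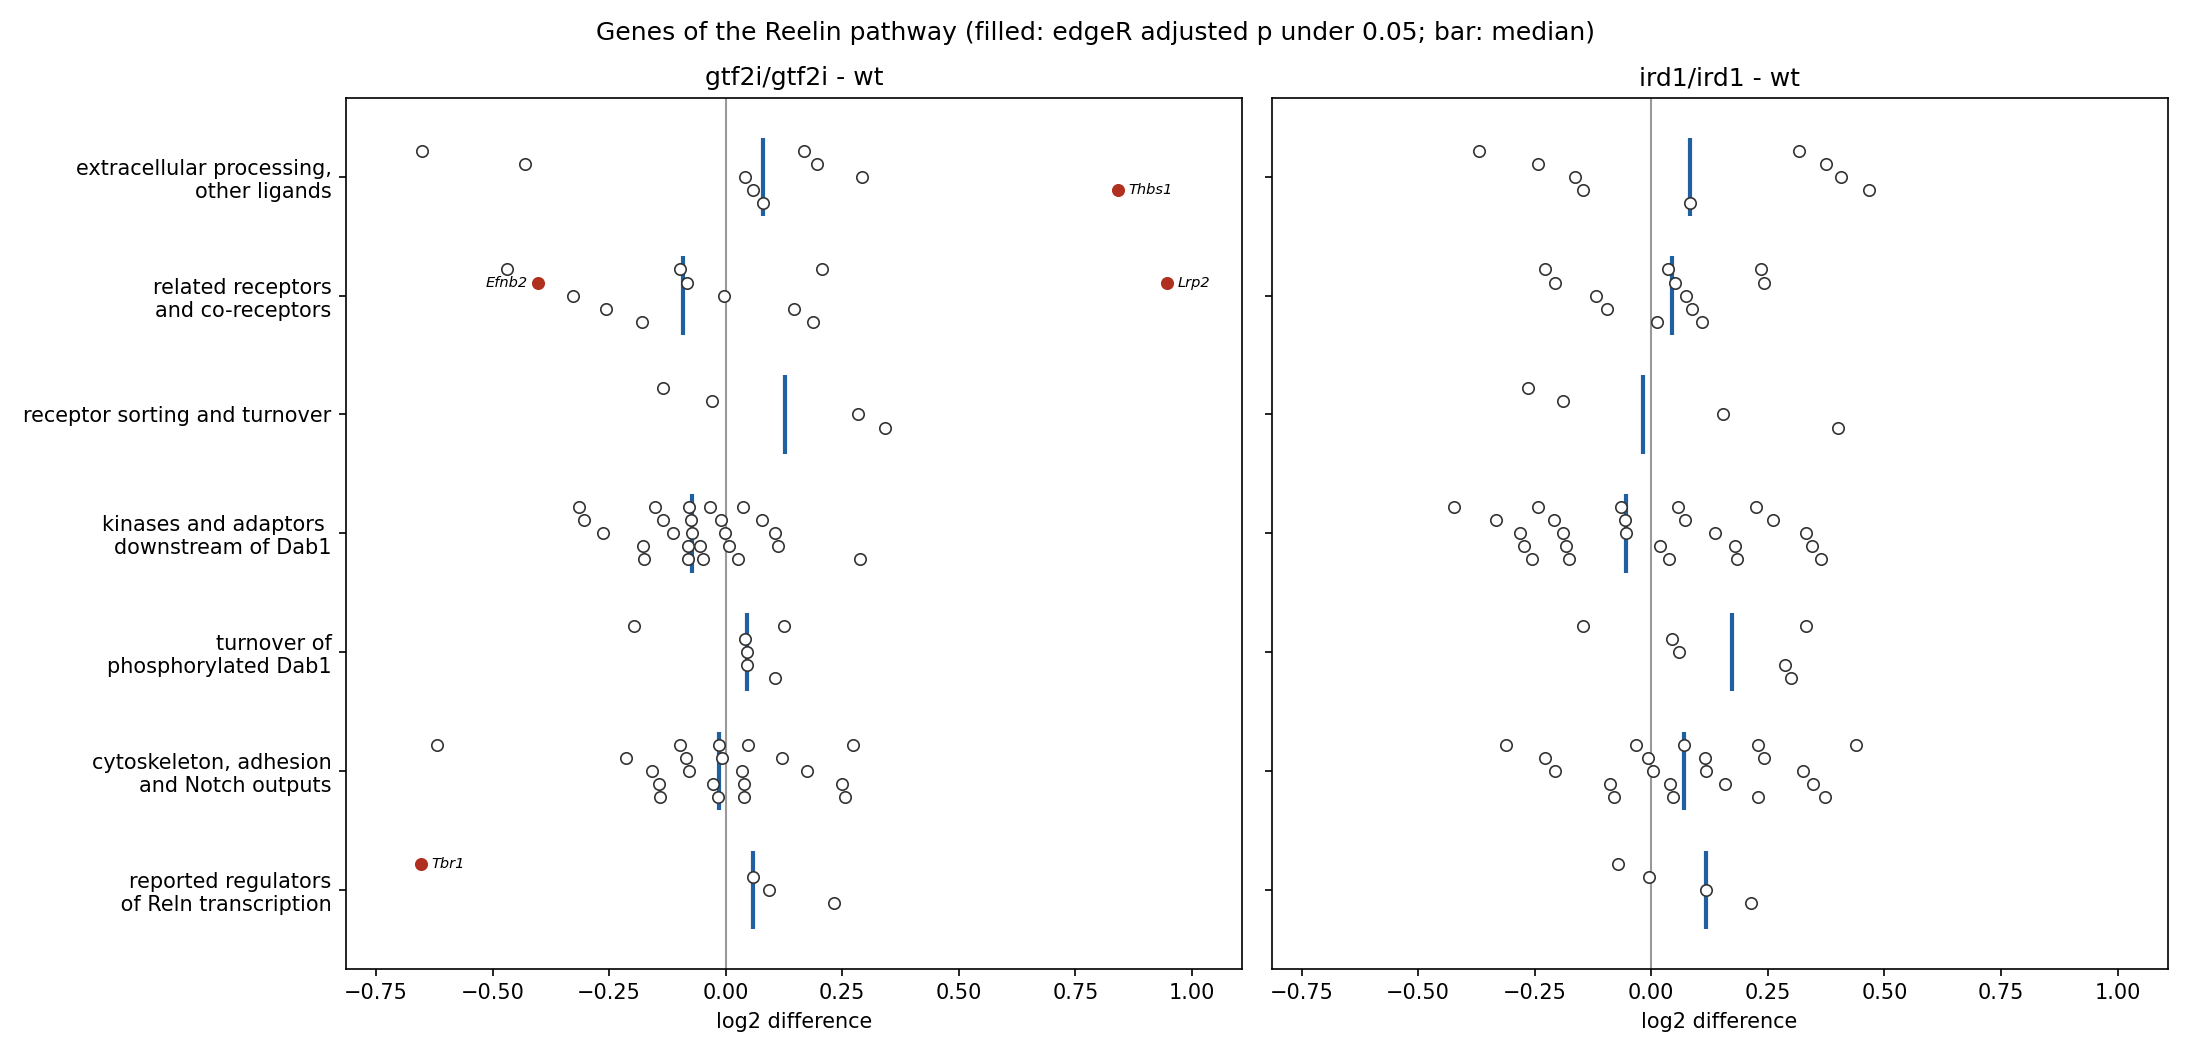
Log2 difference (horizontal axis) of the listed genes of Reelin signalling, by role, in gtf2i/gtf2i against wt and in ird1/ird1 against wt; filled and named points have an edgeR adjusted p under 0.05 and bars are list medians. In gtf2i/gtf2i against wt, Thbs1 and Lrp2 are called higher and Efnb2 and Tbr1 lower, and no gene is called in ird1/ird1 against wt.

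Of 5 reported regulators of Reln transcription, Tbr1 was called lower and none higher. Tbr1 encodes a T-box factor of preplate neurons. It counted 169, 156 and 184 CPM in wt, 188, 190 and 180 in gtf2i, and 113, 106 and 106 in gtf2i/gtf2i, in the order of replicates 1 to 3. The gtf2i/gtf2i libraries were below all others, with differences of -0.65 from wt (SE 0.08, adjusted p = 0.00154 by edgeR) and -0.78 from gtf2i (adjusted p = 2.09e-04). In ird1/ird1 Tbr1 differed from wt by -0.07 (adjusted p = 0.733). Pax6, Sp1 and Dnmt1 were not called in any genotype contrast.

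The whole brain was sequenced, so fewer Reln-expressing cells and less Reln RNA per cell cannot be told apart. Marker lists of cells that make Reelin or that surround them were therefore set beside the result. Of 13 Cajal-Retzius markers, all in the table, 1 was called higher in gtf2i/gtf2i against wt (Nhlh2, 0.51, adjusted p = 0.0379 by edgeR) and 0 lower, beside 0.41% and 0.53% of all genes, and the median was 0.11. Their summed level was 1012 to 1353 CPM in gtf2i/gtf2i and 1048 to 1089 in wt. The largest parts came from Zic1 and Ebf3, at 263 and 217 CPM in wt, against 25.0 for Trp73 and 22.5 for Calb2. The sum is therefore no measure of how many Cajal-Retzius cells were present. The markers did not move one way: Lhx5 differed by 0.44 (adjusted p = 0.0522) and Lhx1 by 0.44 (0.114), while Calb2 differed by -0.66 (0.0529) and Trp73 by -0.40 (0.32). Trp73, the marker most restricted to these cells, was at 19.0 ± 4.06 CPM in gtf2i/gtf2i and 25.0 ± 4.60 in wt. Without gtf2i/gtf2i replicate 3, 2 of the 13 were called higher and 2 lower, in a setting that called 1159 of all genes, and the median was 0.055. Against gtf2i, 4 were called higher (Nhlh2, Lhx5, Lhx1 and Cxcr4) and 1 lower (Calb2), beside 1.33% and 1.79% of all genes.

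Of 10 markers of cortical preplate and projection neurons, 4 were called lower in gtf2i/gtf2i against wt, as Reln was, and 0 higher, with a median of -0.58. Over all genes 0.53% were called lower. The 4 were Neurod6 (-1.30, adjusted p = 5.33e-04 by edgeR), Neurod2 (-1.25, 7.62e-04), Bcl11b (-0.67, 0.0206) and Tbr1, which is also on the list of regulators. The summed level of the list was 539 to 624 CPM in gtf2i/gtf2i against 800 to 1045 in wt and 983 to 1046 in gtf2i. Of 11 telencephalon genes 3 were called lower, among them Eomes (-0.66, adjusted p = 0.034) and Dlx1 (-0.41, 0.0414), with a median of -0.41 and summed levels of 852 to 1051 CPM against 1148 to 1307. Among the 6 uncalled genes of the first list, Nrn1 was at 0.19 and Neurod1 at -0.05, and among the 8 of the second Gsx2 was at 0.17 and Emx2 at -0.06. Against gtf2i, 8 of the 10 and 4 of the 11 were called lower, beside 1.79% of all genes. Without gtf2i/gtf2i replicate 3, where 1159 of all genes were called against wt, 6 of the 10 and 4 of the 11 were called lower and 0 higher. The part of these markers in the Reln result was not tested.

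Other cell types gave counts of 0 to 2 in gtf2i/gtf2i against wt. Each is followed by its count without gtf2i/gtf2i replicate 3, a setting in which 1159 of all 11708 genes were called in place of 110. Of 7 rhombic lip and early cerebellar genes, from another region where Reelin is made, 0 were called (1 lower without that library). Their median was 0.09, and -0.046 without that library. Of 12 pan-neuronal genes 0 were called (7 lower without it), with a median of -0.18 (-0.36 without it). Of 12 radial glia genes 2 were called lower, Tnc and Aldoc (3 higher and 3 lower without it). Other genes of that list differed the other way without being called, such as Hes5 (0.41), Nes (0.39) and Vim (0.38), and these 3 were called higher against gtf2i. The summed radial glia level was 2892 to 3146 CPM in gtf2i/gtf2i against 2478 to 2683 in wt. Of 7 genes for choroid plexus and roof plate 1 was called lower, Ttr (1 higher and 1 lower without that library), though the median was 0.22. Of 8 red blood cell genes 2 were called higher, Hbb-y and Slc4a1 (4 higher without it), and the summed level was 5790 to 9184 CPM against 4091 to 5314 in wt. Of 9 endothelial genes 0 were called with or without it, and of 11 meningeal genes 0 were called (5 higher and 1 lower without it). The part of the called markers in the Reln result was not tested.

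**Figure D5:**
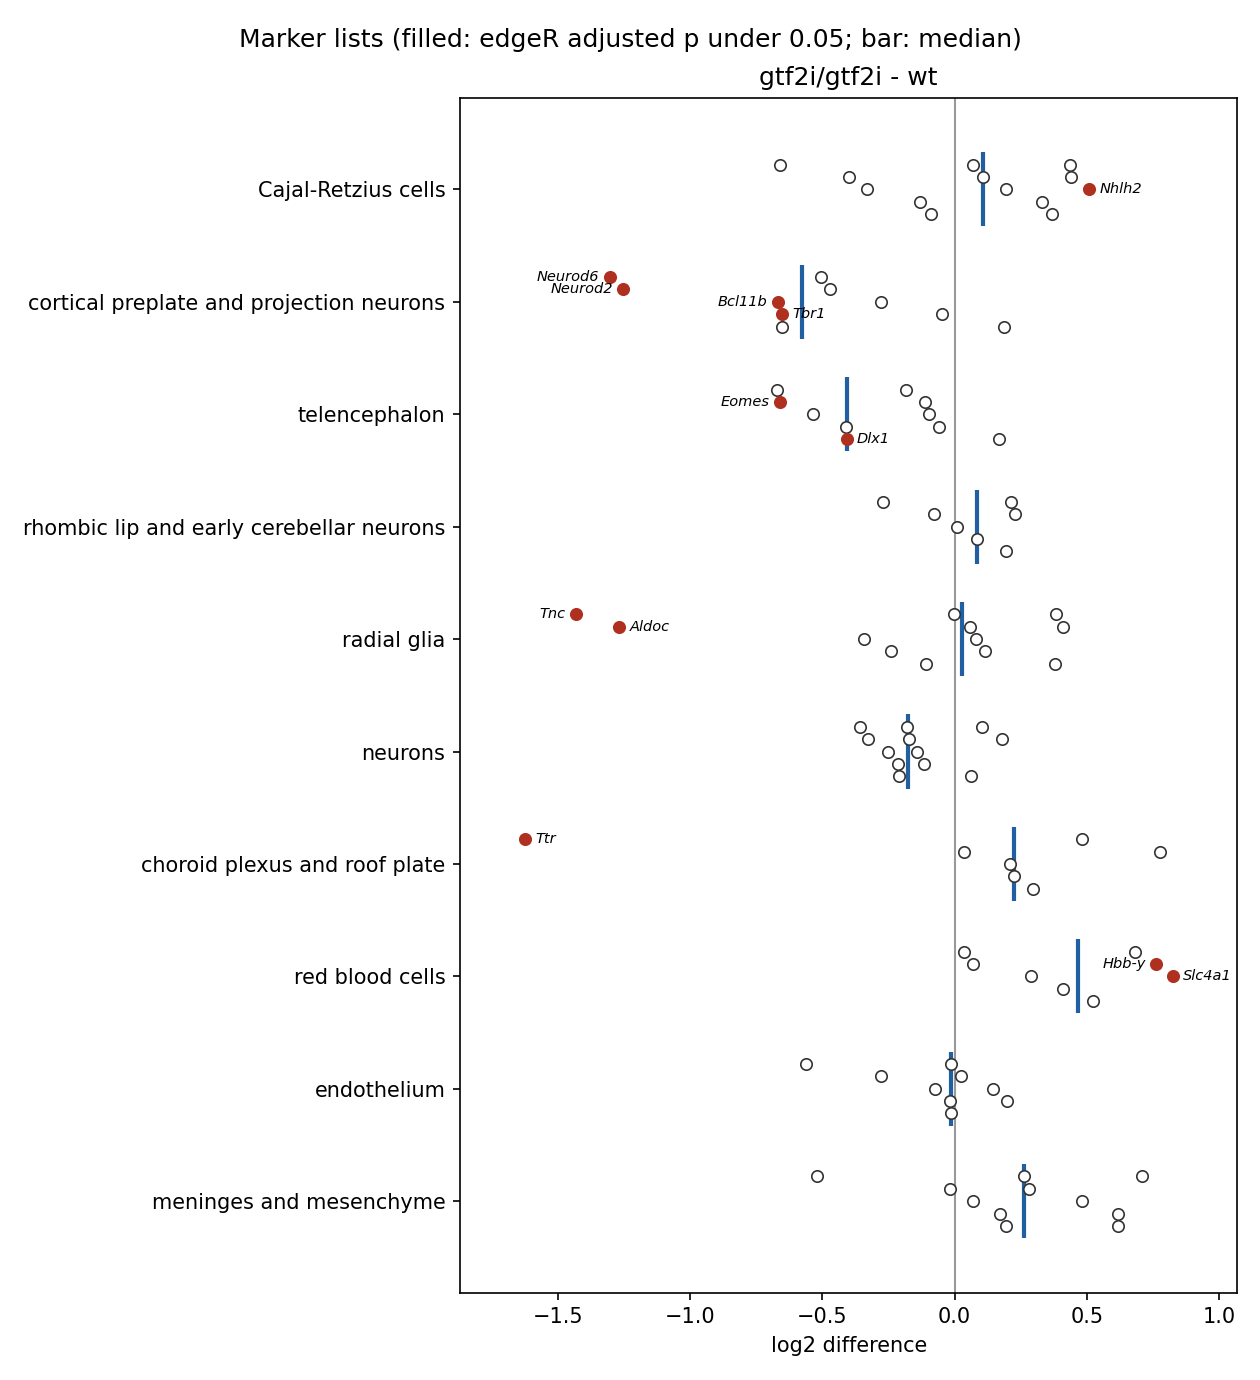
Log2 difference (horizontal axis) of marker genes in gtf2i/gtf2i against wt, by list; filled and named points have an edgeR adjusted p under 0.05 and bars are list medians. The lists of cortical preplate neurons and of the telencephalon (1 gene not drawn) have medians left of 0, at -0.58 and -0.41, and the Cajal-Retzius list lies on both sides, with a median of 0.11.

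Reln lies on the same chromosome as both mutated genes, 111.9 megabases from the nearer of them. The 10 nearest genes of the table around Reln, 5 on each side, were read to see whether its neighbourhood moved with it, a choice made after its values were known. Their differences in gtf2i/gtf2i against wt ran from -0.04 to 0.20, and 0 of the 10 were called (smallest adjusted p = 0.577 by edgeR). Over all genes 0.94% were called, so a count of 0 among 10 is near that share. The direct neighbours were Psmc2, a proteasome subunit (0.02), and Orc5, a subunit of the origin recognition complex (0.05). The Reln difference was -0.68, outside the range of these 10 genes. Whether its position plays a part was not tested.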

How the data were processed

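Raw counts per gene for 18 libraries were used as the authors deposited them, with 1 transcript length in bases per gene in the same table. Reads were trimmed, aligned and counted with Trimmomatic, STAR and HTSeq against mm10, per the submitters' processing notes; their versions, order and the strand setting are not given in the sources used here, so reads from overlapping or antisense genes cannot be told apart. The table held 11708 genes, with a lowest count of 10 to 22 in each library, and edgeR's own filter removed none. Gene IDs matched a RefSeq-based name table for 11704 genes, 11663 with the same symbol.

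Each cross was fitted separately over its 9 libraries with edgeR 4.0.16 (R 4.3.3) on TMM-scaled library sizes, by the quasi-likelihood test with genotype as the only term. The difference between the crosses, and between their wt groups, came from fits over all 18 libraries. P-values were adjusted by the Benjamini-Hochberg method over all genes, and called means an adjusted p under 0.05. A CPM is a count per 1000000 of the scaled library total, and intervals are 95%. The precision follows depth: totals ran from 3239117 to 7371483 counts. Alternatives were DESeq2 1.42.0 and its size factors, a minimum mean of 10 CPM, no filter, only the groups compared, all 18 libraries together, removal of a lowess trend on transcript length (span 0.3, limma 3.58.1), the title number as a block, and leaving out each library in turn. The marker counts without gtf2i/gtf2i replicate 3 were chosen after seeing the data. Figures were drawn with matplotlib 3.10.9 (Python 3.11.15, pandas 2.3.3). The tests were tried on simulated data.

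Title numbers could pair libraries only within the gtf2i cross, where each genotype has 1 library per number. Deviations from the group means correlated across genes by 0.37, 0.10 and 0.52 (for 11619, 12301 and 12419, in this order throughout) between same-numbered wt and gtf2i/gtf2i libraries. All were above 0.1, and these were taken as pairs. That cut does not separate them from all others: wt of 11619 and gtf2i/gtf2i of 12301 reached 0.20. The pairing is therefore uncertain. For gtf2i the values were 0.28, 0.35 and 0.05 with wt and 0.06, 0.11 and 0.06 with gtf2i/gtf2i, and no pairs were taken. The block fit still used the number for every library, also in the ird1 cross.

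Genes named are the 4 members, the mutated genes, every listed gene of Reelin signalling called in a genotype contrast, the gene with the smallest p of a list with none called, and the 5 genes most correlated with each member. Markers are named where they show how a list was made up. A few listed genes are counted but not named or drawn, and are not reported here. The members and lists were chosen with earlier results of these data known. The 32 chromatin samples of the series were not analysed here.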

Additional observations from a re-analysis of the deposited data

Results flagged for a closer look

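The gtf2i/gtf2i effect and the ird1/ird1 effect differed for Gtf2i itself, by -2.88 on the log2 scale (adjusted p = 3.89e-14 by edgeR, a test of the difference itself over all 18 libraries). Every gtf2i/gtf2i library, between 81.8 and 83.3 CPM, lay below every other library. Gtf2i is the gene named in the gtf2i labels, so this difference describes the genotypes and is no separate result.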

How the results depend on the processing

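Reln was called lower in gtf2i/gtf2i under 15 of 15 alternatives against wt (log2 difference -0.75 to -0.59, adjusted p from 1.26e-06 to 0.0482) and under 15 of 15 against gtf2i (-0.94 to -0.78, adjusted p from 1.15e-11 to 0.00892). For the difference between the crosses, 1 member, Reln, was called with DESeq2 and 1 with the replicate block. How many genes were called in all depended far more on the setting: 110 against wt became 28 to 1159 with 1 library left out, 365 against gtf2i became 67 to 1376, 20 for the difference between crosses became 12 to 723, and 0 between the wt groups became 0 to 2076. The cause was not tested.

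With the title number as a replicate block, 624 genes were called against wt and 892 against gtf2i, the difference for Reln kept its call against wt (adjusted p = 2.51e-04), and no call on Dab1, Vldlr or Lrp8 was gained. The counts against wt and gtf2i were 310 and 504 with DESeq2, 315 and 532 with the length trend removed, 262 and 474 with all 18 libraries, 31 and 343 with only the groups compared, and 800 and 1068 with block and length trend combined.

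Differences near 0 changed sign. With the length trend removed, without and with the replicate block, Lrp8 was 0.0054 and 0.0024 in gtf2i/gtf2i against gtf2i, -0.17 and -0.16 in ird1/ird1 against wt, -0.068 and -0.066 in ird1 against wt, and 0.12 and 0.12 for the difference between crosses. Dab1 was -0.052 and -0.061 in ird1 against wt, and Reln -0.080 and -0.079 in ird1/ird1 against ird1. Vldlr was -0.0053 with both in ird1 against wt, and Reln was -0.15 between the wt groups with the length trend removed. In ird1/ird1 against ird1, Lrp8 was 0.0090 with a minimum of 10 CPM, 0.0021 with only the groups compared and 0.0081 with all 18 libraries.

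Leaving out 1 library at a time moved gtf2i/gtf2i against wt between -0.12 and 0.18 for Vldlr and between -0.17 and 0.062 for Lrp8. In gtf2i against wt, Dab1 ran from -0.021 to 0.22 and Lrp8 from -0.051 to 0.038. Against gtf2i, 1 to 2 members were called, Vldlr ran from -0.28 to 5.60e-04 and Lrp8 from -0.15 to 0.078. In ird1/ird1 against wt, Reln ran from -0.10 to 0.033 and Lrp8 from -0.019 to 0.087. In ird1 against wt, Dab1 ran from -0.073 to 0.14, Vldlr from -0.046 to 0.21 and Lrp8 from -0.025 to 0.086. In ird1/ird1 against ird1, Reln ran from -0.0073 to 0.14 and Lrp8 from -0.062 to 0.060. For the difference between crosses 0 to 1 members were called, and Lrp8 ran from -0.20 to 0.030. Between the wt groups 0 to 2 were called. Depth limits the lower genes: the counting error of a library was 3.8% to 4.4% for Dab1 in ird1/ird1, above the 1.07% spread (SD as a percent of the mean) of that group.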

Other observations

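Of the 5 genes whose levels followed Reln most closely across the 18 libraries, 4 were called lower in gtf2i/gtf2i against wt: Neurod6 (-1.30, adjusted p = 5.33e-04 by edgeR), Gpr26, an orphan receptor (-1.14, 0.0197), Prkce, a protein kinase C (-0.95, 0.0353), and Shtn1 (-0.86, 0.0199). The correlation uses the same libraries, so these values describe the likeness and add no separate evidence. None of the 15 genes most like Dab1, Vldlr or Lrp8 was called in that contrast. Over all genes 0.94% were called there and 0.53% were called lower, so 0 of 15 is near the share of all genes.

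In the ird1 cross each genotype had 2 libraries under the title number 11610 and 1 under 11902. Reln ranged over 426 to 438 CPM in wt, 367 to 407 in ird1 and 415 to 471 in ird1/ird1 under 11610, and stood at 424, 424 and 385 under 11902. The ird1/ird1 libraries were thus above ird1 under one number and below it under the other. Vldlr was higher in ird1/ird1 than in wt under both, at 58.8 to 69.1 against 50.4 to 50.8 CPM and at 58.6 against 40.1 CPM.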
